A study of Schizosaccharomyces pombe with 4 samples.

Results

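In Schizosaccharomyces pombe, the fission yeast, DNA bound by Rif1 was mapped on 1 tiling array, out of 4 arrays in the series. The array was chosen by its title, and each value is the log2 ratio of DNA recovered with a Myc antibody (Cy5) over whole-cell extract DNA (Cy3), centred on the median of the array. The title gives the cells as wt (wild type). The cells carried Rif1Myc, a Myc-tagged Rif1, and were in logarithmic growth in rich medium (YEA) at 30 °C. They were fixed with 3% paraformaldehyde, and the DNA was sheared to between 500 and 1000 bp. The other arrays, used here only beside the results, came from cells grown and fixed in the same way. They were Taz1_wt (an antibody raised against Taz1, wild-type cells) and Taz1_L593F (the same antibody, cells of genotype taz1l593F (mut5)). The last was Taz1_GFP (a GFP antibody, taz1GFP cells), whose title also gives wt cells. Each group was 1 array, so no test between groups was possible, no replicate error exists, and an SD given below is a spread over tiles or peaks of 1 array. An array of untagged cells with the Myc antibody was not analysed here, so recovery that depends on the antibody or on the tag alone cannot be told apart from Rif1. Positions are those in the probe names, and no source used here names their genome build. Genes, exons and motifs were therefore placed by lining the tiles up with assembly ASM294v3, as described under processing.

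Rif1 is a large conserved protein that was first known from telomeres. In fission yeast it reaches chromosome ends through Taz1, which binds the double-stranded repeats there. Inside the chromosomes it holds back late and dormant replication origins by bringing protein phosphatase 1 to them. Published work in this yeast described a G-rich consensus at internal Rif1 sites, in which the bases GTGGGGG follow a stretch with C and A or T.

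The array carried 60-base probes (tiles) about every 300 bp, of which 41242 chromosome tiles gave a value, and 9 spots marked as outliers were left out. The robust SD of the log2 ratio was 0.40, and the SD between neighbouring tiles, divided by the root of 2, was 0.20. Values of adjacent tiles were correlated (r = 0.81 across tiles). Signal was not well above background at 5 probes and saturated at 0. The array was read on a different scanner from the other 3 and was a slide of its own, so slide, scanner and antibody cannot be told apart. Probes of the mitochondrial genome had a median of −3.11.

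A peak was a run of tiles whose running median of 3 tiles was at least 2-fold (log2 of 1), with runs within 1 kb joined. There were 151 such peaks, made of tiles that were 2.09% of all tiles tested. They covered 273 kb, and 138 of them were internal, that is, outside the outer 50 kb of each chromosome and the centromeres. The median summit was 1.20, with quartiles of 1.07 and 1.54, so most peaks lay close to the threshold. The lowest summits inside the threshold were 1.0001, 1.0024 and 1.0024, and the highest summits of separate stretches below it, shoulders of the peaks not counted, were 0.9984, 0.9907 and 0.9877. At 3-fold (log2 of 1.585) there were 36 peaks, from 0.58% of tiles, and each lay in a different 2-fold peak. Their median summit was 2.21, or 4.63-fold. When peaks were called on the odd-numbered tiles alone, the 30 peaks of 3-fold had a median of 1.92 on the even-numbered tiles that the call had not used, and 27 were past 3-fold there. The 99 odd-tile peaks of 2-fold gave 96 with even tiles to read, at a median of 1.18, and 70 of these were past 2-fold. The even-numbered tiles are not an independent test. They were read on the same array, and the sheared fragments were longer than the distance between tiles, so neighbouring tiles can read the same fragments. The comparison bears on the noise of single tiles and cannot show an error shared by the whole array.

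The highest peaks lay between genes. The first stood between pvg5, which encodes a protein for pyruvylated galactose on cell surface glycans, and SPAC22F8.03C on chromosome I (4780500 to 4786800). Its tiles from 900 bp before to 900 bp after the summit read 1.95, 2.57, 2.91, 3.11, 3.61, 2.91 and 2.12. Taz1_wt tiles at the same 7 places lay between 0.01 and 0.31. Over the 21 tiles of the peak the mean was 1.88 ± 0.77 (SD over tiles), with a summit of 3.11, or 8.64-fold. The next was between stb3, a transcription factor gene, and SPBC1652.02 on chromosome II (4253700 to 4260900, summit 2.98). Another was between ste7, which encodes a meiosis-specific arrestin-family membrane adaptor, and the 5S ribosomal RNA gene SPRRNA.11 on chromosome I (452100 to 461100, summit 2.91), and with 9000 bp it was the widest internal peak.

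The other internal peaks past 6-fold numbered 5. They lay outside the coding exons of mug114 (summit 2.91), between the aldehyde dehydrogenase gene atd1 and the CENP-B homologue gene cbh1 (2.88), upstream of both erv41 and the transketolase gene tkt1 (2.77), between rga10 and SPAC1565.03 (2.76), and between the G1 cyclin gene puc1 and the U3 snoRNP gene utp4 (2.69). The peak between SPAC212.12 and SPAC212.06C, in the outer 50 kb of chromosome I, reached 2.74. The rest of the 20 highest peaks reached between 2.19 and 2.54. They included the intervals between rga7 and mat1-Mi beside the mating-type locus (2.45), between scn1 (annotated as tRNA-Ala) and the pyruvate decarboxylase gene pdc201 (2.41), between ubc1 and gsf1 (2.31), and between SPBC713.14C and the squalene monooxygenase gene erg1 (2.20), and sites in msi2 (2.26) and ayr1 (2.22).

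The sequences below are shown because copies of GTGGGGG were the feature shared by nearly all of the highest internal peaks. Each is the stretch round the copy nearest the summit of 1 of the 8 internal peaks past 6-fold, read 5′ to 3′ on the strand of the motif from the RefSeq assembly ASM294v3. Capitals mark the motif, and the coordinates are those of ASM294v3, not of the array.
pvg5 and SPAC22F8.03C, chrI:4787884-4787913, minus strand: cagcaggcctacGTGGGGGaagtgacttac
stb3 and SPBC1652.02, chrII:4255706-4255735, minus strand: taaaagtgctatGTGGGGGcaacaagaaat
ste7 and SPRRNA.11, chrI:455685-455714, minus strand: ctgagaccctatGTGGGGGgaaatttatcc
mug114, chrI:2663825-2663854, plus strand: aataaacccgatGTGGGGGgaaaggatgaa
atd1 and cbh1, chrI:4456936-4456965, plus strand: gaaagtcgcaaaGTGGGGGatttcgatcct
erv41 and tkt1, chrII:2585163-2585192, minus strand: aattcctcctatGTGGGGGagtagtaagaa
rga10 and SPAC1565.03, chrI:1294160-1294189, minus strand: ccaaaggcctgaGTGGGGGcctaagtattc
puc1 and utp4, chrII:3702833-3702862, plus strand: ttttgtaccaaaGTGGGGGgtctaagtcgt
The copies lay between 45 and 310 bp from the summit tile. In 6 of these 8 stretches the motif had A or T at both bases before it and C at the fourth base before it. These are the letters of the published consensus. The stretches at pvg5 and rga10 did not have them. At pvg5 another copy, 94 bp from the printed one and on the plus strand, did.

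The motif was then counted round all summits, in windows of 1000 bases and on both strands. It was present at 26 of 33 internal peaks of 3-fold or more (78.8%, 95% Clopper-Pearson interval 61.1% to 91.0%), against 1.88% of windows of that length round all 40021 internal tiles. The share was 8 of 8 at peaks past 6-fold, 10 of 12 at 4- to 6-fold, 8 of 13 at 3- to 4-fold and 12 of 105 (11.4%) at 2- to 3-fold. A window with more than 1 copy was found at 18 of the 33 peaks, with a median of 87.5 bp between neighbouring copies. The telomere-repeat motif GGTTACA, which Taz1 binds, was present at 9.09% of the 33 peaks and at 7.91% of all internal windows. None of the 25 internal low stretches described below held GTGGGGG in its window, and a count of 0 of 25 allows a share of up to 12% by a limit of 3 counts, with a 95% Clopper-Pearson upper bound of 13.7%.

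Of the 33 internal peaks of 3-fold or more, 7 had no copy within the window. They stood at the sterol desaturase gene erg31 (summit 1.77), SPAC644.09 (2.45), the retrotransposon Tf2-3 (1.66), pmo25 (1.96), the interval between mat1-Mc and SPBC23G7.10C (1.61), the pyruvate dehydrogenase subunit gene pdb1 (1.72) and the interval between cyc3 and ste11, the gene of a master regulator of mating (2.06). The peaks at erg31, pmo25 and beside ste11 held 1, 2 and 2 copies farther from the summit. At SPAC644.09, Tf2-3, pdb1 and mat1-Mc these letters were not in the peak.

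**Figure D1:**
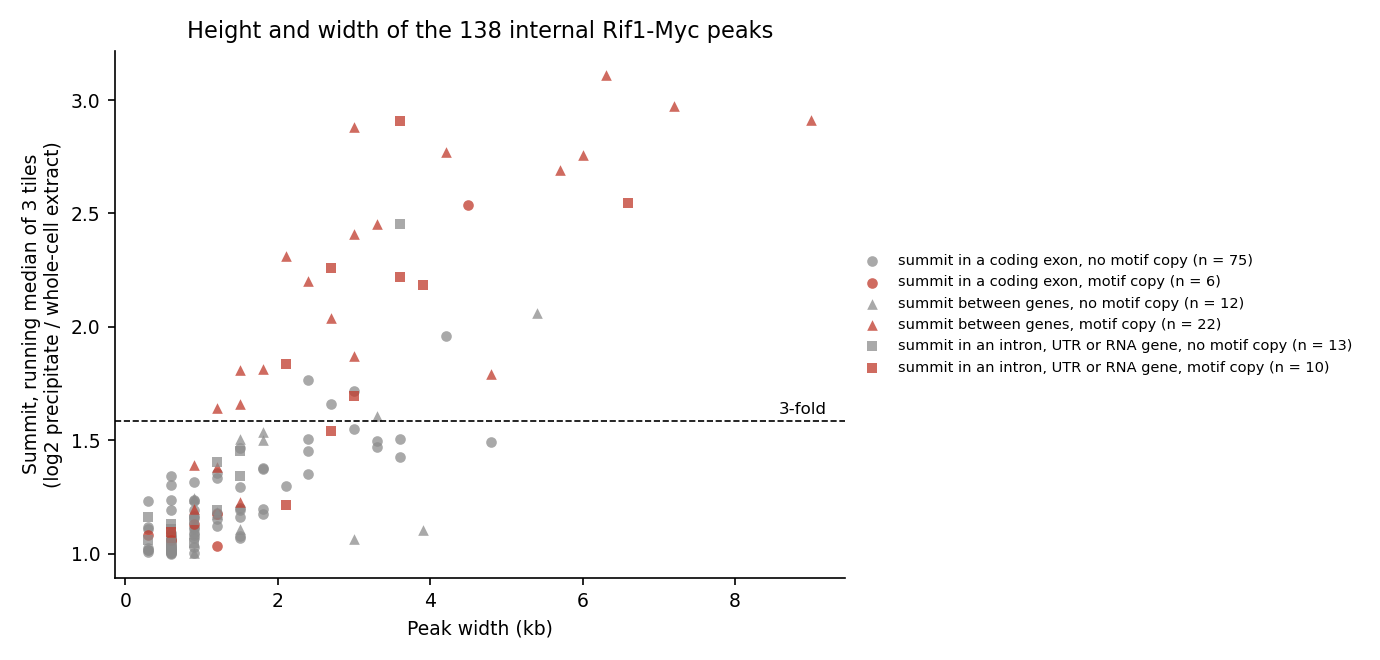
Width (kb) and summit (log2 ratio, running median of 3 tiles) of the 138 internal peaks; marker shape gives the annotation of the summit tile and red marks peaks with the motif within 500 bases. Above the dashed 3-fold line most points are red and lie outside coding exons, and the 8 peaks past 6-fold are all red.

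Read from the motif instead of the peaks, 259 internal copies of GTGGGGG lay near a measured tile. Copies within 500 bases of each other share tiles, so they were joined into 222 places. A place with more than 1 copy took the highest running median among the tiles nearest its copies. At the 190 places with 1 copy the median of the running median at the nearest tile was 0.29, and 17 (8.95%) were past 2-fold. At the 27 places with 2 copies the median was 1.69 and 20 were past 2-fold, and all 5 places with 3 or more copies were past 2-fold, with a median of 2.45. Among all internal tiles the median was 0.00, and 1.95% were past 2-fold.

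The letters before the motif also went with the ratio. A copy had both features of the consensus, C at the fourth base before and A or T at both bases before, at 30 of 54 copies in peaks of 3-fold or more and at 18 of 188 copies outside the peaks (55.6% and 9.57%). All 19 places with 2 or more copies, of which at least 1 had both features, were past 2-fold (median 2.20), against 6 of 13 such places without (median 0.66). At places with 1 copy, 10 of 28 with both features and 7 of 162 without them were past 2-fold. The features are those of the published consensus, which was itself derived from Rif1 maps in this yeast, and the counts here describe 1 array. Medians of the other arrays at the copies inside the peaks of 3-fold or more were 0.01 on Taz1_wt, −0.08 on Taz1_GFP and −0.23 on Taz1_L593F. Motif copies with a low ratio in spite of a second copy nearby lay, for example, between ysp2 and pdc202 (0.38) and at asr1 (0.33). Others lay between isp7 and SPRRNA.19 (0.13), and all were without both features. Copies at these places also lay closer together than the median of 87.5 bp at the peaks of 3-fold or more. Other low copies, at shd1 and between agl1 and SPAPB1A11.06, were farther apart than that and also without both features. The part of spacing, beside that of the letters, was not tested.

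**Figure D2:**
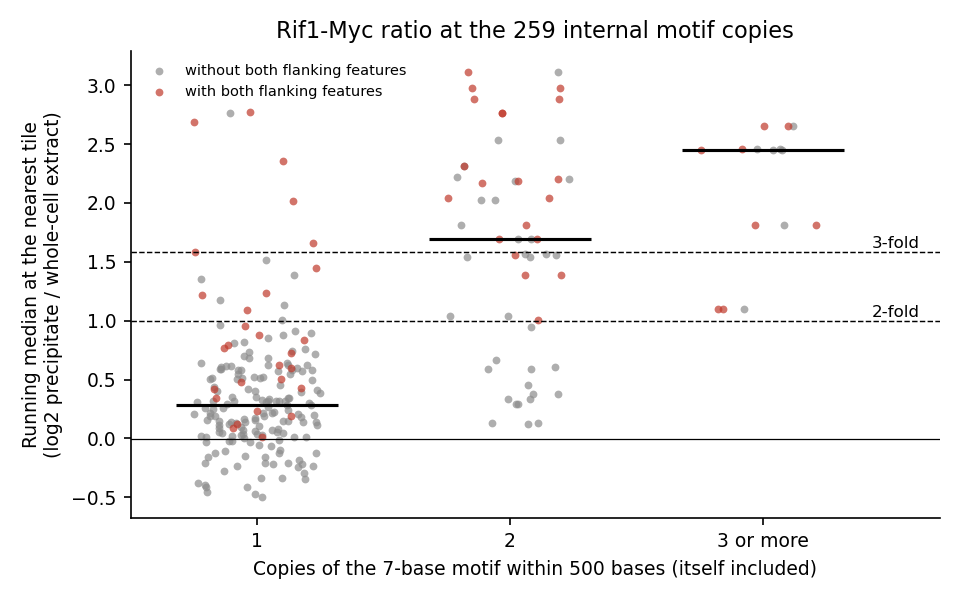
Running median at the tile nearest each of the 259 internal motif copies (log2 ratio), by the number of copies within 500 bases; black bars are medians and red points have both flanking features. Places with 1 copy sit mostly near 0.29, those with 2 near 1.69, and the points with 3 or more copies all lie above the 2-fold line.

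Height, width and position of the peaks went together. Internal peaks of 2- to 3-fold had a median width of 900 bp, those of 3- to 4-fold 2700 bp, those of 4- to 6-fold 3450 bp and those past 6-fold 5850 bp, with fold classes set after the files were read. A wider run of tiles at 2-fold is partly built into a higher summit. Of the 33 internal peaks of 3-fold or more, 20 (60.6%) had the summit between genes and 5 (15.2%) in a coding exon, where 20.6% and 58.4% of internal tiles lie. Of the intergenic summits, 11 lay between tandem, 7 between divergent and 2 between convergent genes. Of the 105 internal peaks of 2- to 3-fold, 76 had the summit in a coding exon.

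**Figure D3:**
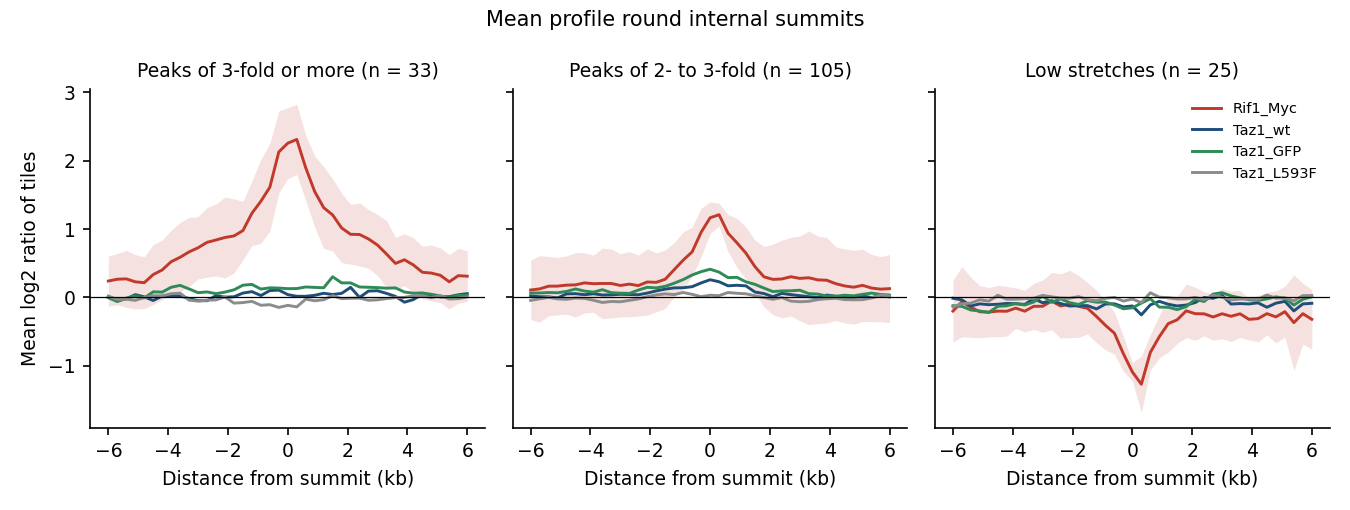
Mean log2 ratio of tiles by distance from the summit (kb) for the 33 peaks of 3-fold or more, the 105 peaks of 2- to 3-fold and the 25 low stretches, all internal; the band is the SD over Rif1_Myc peaks. The Rif1_Myc line of the first panel reads 2.26 at the summit tile and 2.31 at 300 bp to its right. It falls to 0.73 and 0.77 at 3 kb on either side, while the 3 Taz1 lines stay near 0.

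At the summit tile of the 33 high peaks the mean ratio was 2.26 ± 0.52 (SD over peaks). It first fell below a ratio of 0.5 of that value 1500 bp to the left and 1800 bp to the right. The mean was highest, 2.31, at 300 bp to the right, so both distances start from a tile left of the maximum. At 3 kb it was still 0.73 and 0.77, and at 6 kb 0.24 and 0.31. For the 105 peaks of 2- to 3-fold the summit mean was 1.17 ± 0.23, and at 3 kb the means were 0.18 and 0.28. The other arrays had summit means of 0.04 (Taz1_wt), 0.13 (Taz1_GFP) and −0.12 (Taz1_L593F) at the high peaks, and of 0.26, 0.41 and 0.03 at the lower ones.

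The channels behind the ratio differed between the high peaks and the coding peaks. At the 33 internal peaks of 3-fold or more the median of the precipitate channel was 1.42 above the array median (log2) and that of whole-cell extract was −0.16. At the 76 coding peaks of 2- to 3-fold these were 2.42 and 1.30, so both channels were bright, and whole-cell extract was above the array median at 71 of the 76. The median GC content of the 1 kb round the summit was 36.2% at the high peaks and 40.9% at the coding peaks, against 36.1% over all internal tiles. Loess, which removes a trend of the ratio on brightness within the array, left a 2-fold peak at 32 of the 33 high peaks and at 5 of the 76 coding peaks. A linear fit on GC content removed from the ratio left 33 of 33 and 29 of 76. The high peaks also stood farther above the threshold, with a median summit of 2.20 against 1.12 at the coding peaks. Of the 29 peaks of 2- to 3-fold with the summit outside coding exons, loess left 13 and the GC fit 23. Of the 5 peaks of 3-fold or more with a coding summit, loess left 4 and the GC fit 5. Across internal tiles the ratio rose with GC content on this array (r = 0.36 across tiles, which are not independent) and fell with it on the others (−0.14 to −0.22). The parts of height, brightness and GC content in the loss of coding peaks were not tested beyond these settings.

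**Figure D4:**
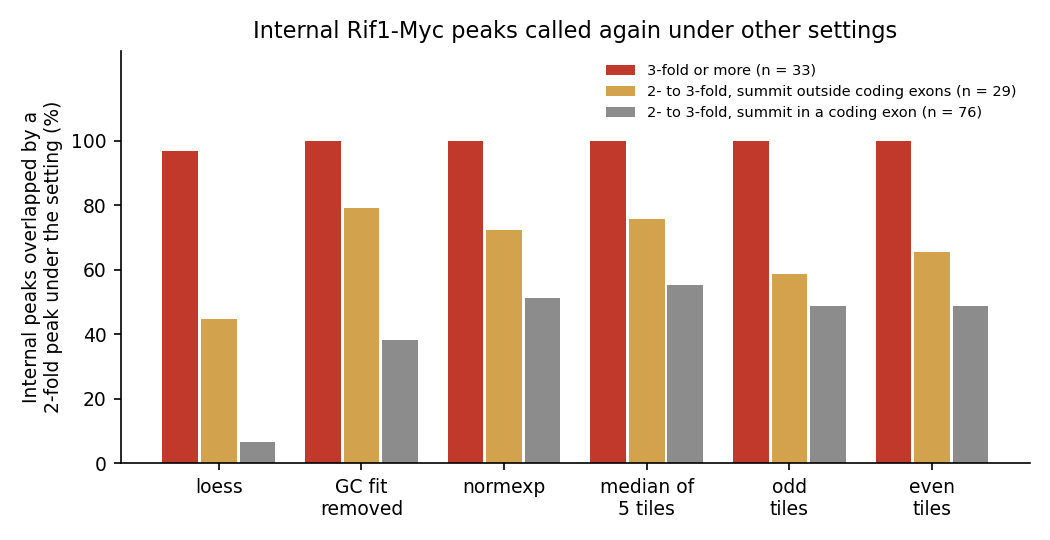
Share of internal peaks (percent) that a 2-fold peak overlaps under each of 6 other settings, for peaks of 3-fold or more (33) and peaks of 2- to 3-fold with the summit outside (29) or inside (76) a coding exon. The high peaks stay at 97.0% or 100% throughout. Under loess the peaks of 2- to 3-fold drop to 44.8% outside coding exons and to 6.58% inside them.

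Of the 76 coding peaks of 2- to 3-fold, 18 held probes that the array's names mark as multi-copy. The highest, between 1.47 and 1.55, were at the retrotransposons Tf2-9, Tf2-4 and Tf2-12, at pop4, a gene of RNase P, at gsf2, at the glycoprotein gene SPBPJ4664.02 and at the hexose transporter gene ght8. Other transporter genes of that family followed, ght2 with 1.38 and ght5 with 1.36. Tf2 elements are near-identical copies, so their probes cannot say which copy was precipitated. Of 13 Tf2 elements, 8 lay in a peak, with a median gene mean of 1.06; the highest value was that of Tf2-11 (1.34, from 1 tile) and the lowest that of Tf2-10 (0.73). At these peaks Taz1_wt was also above 0, for example 0.67 at Tf2-9, 0.63 at Tf2-4 and 0.67 at Tf2-12. The peak at the malic enzyme gene mae2 (1.34) read 1.58 on Taz1_wt and 1.27 on Taz1_GFP. Multi-copy probes were present in 33 of the 151 peaks.

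Genes were counted as in a peak when the gene with 500 bp on either side overlapped one. This held for 222 of 5459 measured genes, or 4.07%. The lists that follow were chosen with earlier results of these data known. Their shares are therefore not independent of those results and only describe this array. Of 28 genes of glycolysis, fermentation and sugar transport, 6 lay in a peak (hxk2, pdc201, eno101, ght2, ght5 and ght8) and the list's median gene mean was 0.33, with ght2 highest (0.92) and the enolase gene eno102 lowest (−0.60). Of 17 genes of the pentose phosphate pathway, organic acid and acetate metabolism, 6 lay in a peak (cit1, atd1, mae1, gnd1, tkt1 and mae2), and gene means ran from tkt1 (1.31) to rpe1 (−0.35). Among 22 mating and nitrogen-starvation genes 4 lay in a peak (ste7, ste4, mam3 and map4), with ste7 highest (1.30) and ste6 lowest (−0.41). Of the 17 cyclin and cell-cycle genes, puc1 (1.25) and wee1 lay in a peak, and res2 was lowest (−0.36). In these lists, the peaks at ght2, ght5, ght8, cit1, mae1, mae2, mam3, map4 and wee1 were of 2- to 3-fold with a coding summit. Loess left 5 of the 76 peaks of that class.

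The 141 ribosomal protein genes had a median gene mean of 0.31 but 5 members in a peak (3.55%), with rpl1802 highest (1.03) and rps2501 lowest (−0.38). Of 13 translation factor genes, 1 lay in a peak, and the median was 0.55, from eft202 (0.77) to sup35 (−0.29). The 15 cell surface and wall genes held 2 in a peak, pvg5 (1.15) and psu1, with gma12 lowest (−0.09). Ribosome biogenesis had 1 of 12, from utp4 (1.56) to nop56 (0.16), and chaperones 1 of 17, from mas5 (0.68) to hsp104 (−0.28). Histones, from hhf1 (0.50) to pht1 (−0.25), had 0 of 11. Replication initiation genes had 1 of 23 (the peak beside sld3), from hsk1 (0.44) to orc6 (−0.39). The meiotic genes of heterochromatin islands, from mbx2 (0.42) to mug9 (−0.39), had 0 of 12. Telomere protein genes had 0 of 10, from pot1 (0.15) to ccq1 (−0.54), with rif1 itself at 0.00 and taz1 at −0.04. Of 169 tRNA genes 3 lay in a peak, with scn1 highest (1.82) and SPCTRNALEU.13, in a centromere, lowest (−1.51). Of 36 5S ribosomal RNA genes 2 did, from SPRRNA.11 (2.05) to SPRRNA.34 (0.00), and of 72 snoRNA and snRNA genes 1 did, from snu2 (0.82) to SPNCRNA.7474 (−0.43). Of 4 measured mating-type genes 2 lay in a peak, from mat1-Mi (1.18) to mat3-Mc (0.65). The long terminal repeats of retrotransposons, 233 measured, had a median of 0.21, and 3 were at 2-fold or more.

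The peaks were spread over all 3 chromosomes, with few high ones on chromosome III. Chromosome I held 76 of 151 (50.3%, with 44.7% of tiles), chromosome II 50 and chromosome III 25 (16.6%, with 19.3% of tiles). This split moved with the setting, as chromosome III held 27 of 119 after a GC fit was removed and 2 of 67 under loess. Of the 36 peaks of 3-fold, 22 were on chromosome I and 13 on II, leaving 1 for chromosome III (2.78%, interval 0.07% to 14.5%). That peak stood between the 5S gene SPRRNA.07 and SPCC965.13 (2310000 to 2314800, summit 1.79). At 3-fold, chromosome III held 0 of 30 peaks on odd-numbered tiles, 2 of 40 after the GC fit and 7 of 52 on single tiles. On the left arm of chromosome II there were 8.80 peaks per Mb, and on the right arm of chromosome III 6.88, against 12.6 to 14.8 on the other arms. These arm counts include peaks at the chromosome ends and in the centromeres. The value of 14.8 was that of the left arm of chromosome III, where 4 of 16 peaks lay in the outer repeats of the centromere. It therefore does not show that internal peaks were densest there. Of the 19 internal peaks on chromosome III, 6 lay in wtf genes (wtf13, wtf18, wtf19, wtf22, wtf23 and wtf24), with summits of 1.02 to 1.24. This is a family of related genes that includes meiotic drivers. The summit tiles at wtf22 and wtf24 were annotated as RNA gene or pseudogene.

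Spacings were uneven. The median distance between neighbouring summits on a chromosome was 49.8 kb, with quartiles of 14.5 and 122 kb, and a mean of 82.3 kb. The longest were 471 kb from centromere III to wtf13, 447 kb from mae2 to wee1 on chromosome III, 361 kb from SPBC409.08 to rpl4302 and 330 kb from tkt1 to pop4 on chromosome II, and 308 kb from rps901 to the interval between gos1 and smp3 on chromosome I. The 36 peaks of 3-fold were a median of 249 kb apart. Of 123 stretches of 100 kb, 45 held no peak and 22 held 3 or more, with at most 4. The mean was 1.20 peaks per stretch and the variance 1.43, or 1.18 times the mean. Clustering of the peaks was not tested. The 5 densest included the stretch at the mating-type locus (nif1, rga7 and mat1-Mi, mat1-Mc, tif213), that of ght5, ght8 and mae2, that of wtf22 to wtf24, that of SPAC23H4.05C, ppk9, vma1 and lys2, and the outer repeats of centromere III.

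**Figure D5:**
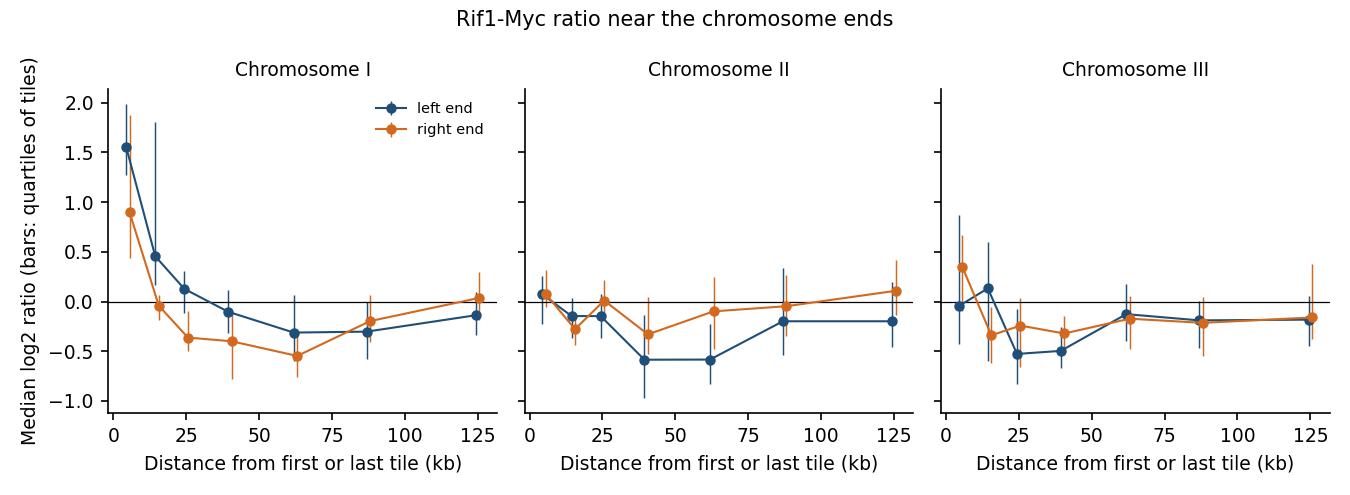
Median log2 ratio of tiles by distance from the first or last tile of each chromosome (kb); points are medians of distance bands and bars are quartiles over tiles. Among these tiles, only the ends of chromosome I rise clearly, to 1.56 on the left and 0.90 on the right. The bands from 30 to 75 kb lie below 0 at all 6 ends. Probes named pNSU, which have no chromosome place, are not plotted.

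Among the tiles at the chromosome ends, the highest medians were those of chromosome I, which held 4 of the 5 peaks in the outer 50 kb. The 129 probes named pNSU carry no chromosome place in the array's names, so they are not part of these medians. Their own median was 3.28. The median on the left of chromosome I was 1.56 over the 34 tiles of the outer 10 kb, 0.46 at 10 to 20 kb and 0.13 at 20 to 30 kb, and the corresponding Taz1_wt medians were 2.20, 1.79 and 0.82. On the right the outer 10 kb had a median of 0.90 and the next 10 kb −0.04. Over the outer 50 kb the medians were 0.26 on the left and −0.17 on the right. At the left end lay the widest peak of all (300 to 9900, summit 2.32), at the RecQ-type helicase gene tlh1. The outer 10 kb had medians of 0.07 and 0.07 on chromosome II and of −0.05 and 0.35 on chromosome III, whose ends lead into ribosomal DNA. The remaining end peak lay on the left of chromosome III (4500 to 5400, between SPRRNA.42 and SPRRNA.47), with a summit of 1.16 and 3 tiles. Over these tiles Taz1_wt averaged 1.34 and Taz1_GFP 3.28. From 30 to 75 kb the band medians were between −0.10 and −0.59 at the 6 ends.

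Low stretches are runs whose running median was at most −1, joined by the same rule. They numbered 40, from 0.33% of tiles. Of these, 22 lay within 100 kb of a chromosome end (55.0%, where 4.47% of tiles lie), 5 in centromeres and 13 elsewhere. Their median width was 600 bp. Chromosome III held 15, or 6.28 per Mb, against 1.99 on I and 3.15 on II. The deepest were in centromere III (1099800 to 1100400, −1.73), in centromere I (3767700 to 3776400, −1.69, also the widest with 28 tiles) and in centromere II (−1.42). Among internal ones the deepest lay between the divergent genes pop5 and ham1 (−1.36), between dbp9 and trm732 (−1.32), between eno102 and SPBPB21E7.02C (−1.23), and between nnk1 and sac32 (−1.23). Near the ends they included the interval between the hexose transporter gene ght7 and SPBPB8B6.02C (−1.25) and one between SPRRNA.50 and SPRRNA.43 on chromosome III (−1.22).

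Of the 25 internal low stretches, 21 (84.0%) had their lowest tile between genes, 11 of them between divergent genes. Their GC content was 29.8%, and whole-cell extract was itself dim at the 40 low stretches, with a median of −1.89 (log2, against the array median) beside −3.00 for the precipitate. Of the 40 low stretches, 2 were overlapped by a low stretch under loess and 11 after a GC fit was removed. In centromere I the 66 single-copy tiles had a median of −0.34 and the 38 multi-copy tiles 0.78. Taz1_wt was low at the same single-copy tiles (−0.96), while Taz1_GFP was at 0.22. The multi-copy tiles had medians of 0.63 and 0.76 in centromeres II and III.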

How the data were processed

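Agilent Feature Extraction 11.5.1.1 turned the scans into numbers, per the file headers. Its processed signal is a deposited intensity with background subtracted and dyes scaled to each other; spot and local background medians are deposited as raw intensity. The deposited log10 ratio of these signals and its error come from the same software, per the file headers. The deposited series matrix holds their log2 ratio, uncentred. For each tile, processed red was divided by green, taken to log2 and centred on the array median, without loess. Peaks were runs of a running median of 3 tiles, as described in the text. Tiles were registered on ASM294v3 in 7 segments by correlating whole-cell extract signal with GC content in windows of 500 bases; the window and the segment borders were chosen after seeing scans of the correlation. Each of 121 stretches of 100 kb, fitted alone, fell within 300 bp of its segment. Named genes were the 20 highest and 10 widest peaks, the 10 deepest and 5 widest low stretches, the 5 longest spacings, the 5 densest stretches, the extremes of each gene list, rif1 and taz1; other names were chosen after their values were seen. The members and lists were chosen with earlier results of these data known. Counts of motif copies, flanking letters and fold classes were added after the files were read. Region calling was tested on simulated data. Intervals are 95% Clopper-Pearson and cover counting error only. Python 3.11.15 and R 4.3.3 with limma 3.58.1 were used.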

Additional observations from a re-analysis of the deposited data

Results flagged for a closer look

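The 129 probes named pNSU, which lie on no chromosome in the array's names and entered no comparison above, had a median log2 ratio of 3.28 on Rif1_Myc, beside 3.99 on Taz1_wt, 4.47 on Taz1_GFP and 1.75 on Taz1_L593F. The 110 probes of the mating-type contig, also outside the chromosome profile, had a median of 0.50 on Rif1_Myc, beside 0.30, 0.55 and 0.22. Both are signals above the array median in probes that the peaks do not use, and no untagged array was at hand to set them against.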

How the results depend on the processing

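The count of 36 peaks of 3-fold stayed within 1.5 times under the planned settings, from 29 on even-numbered tiles to 52 on single tiles. The count of 151 peaks of 2-fold moved further, to 67 under loess, 286 on single tiles, 99 on odd-numbered tiles, 659 at 1.5-fold and 35 at 4 MADs (3.05-fold). The 40 low stretches became 169 under normexp, 4 under loess, 16 with a running median of 5 tiles, 85 on single tiles, 13 after a GC fit, 18 and 14 on odd- and even-numbered tiles, 533 at 1.5-fold and 2 at 4 MADs. The other settings for these counts, among them series matrix values, no centring, dim spots or multi-copy probes left out and other merging, stayed within 1.5 times. A like count did not always mean the same peaks. The 153 peaks of 2-fold under normexp overlapped 98 of the 151, and the 119 after a GC fit overlapped 97. At 3-fold these settings overlapped 33 and 35 of the 36. The share of internal 3-fold peaks with GTGGGGG ran from 69.4% to 89.7% under settings chosen after seeing the data, except 60.9% (28 of 46) on single tiles; that of 2- to 3-fold peaks moved to 25.7% under loess, 19.2% with 5 tiles and 6.8% on single tiles. The causes were not tested. Medians of the ends of chromosome I in the outer 20 kb were 1.32 and 0.41, against 0.26 and −0.17 in the outer 50 kb. With gene bodies alone 0 mating-type genes lay in a peak in place of 2, 0 replication initiation genes in place of 1, 1 5S gene in place of 2, and 0 snoRNA or snRNA genes in place of 1. No paired analysis was possible because each group holds 1 array.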
